A study of Mus musculus with 12 samples.

Results

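The collagen genes of the mouse lung were taken as the protein-coding entries of the count table whose GENCODE M21 symbol has the form of a collagen chain gene (Col, a number, a and a number) and whose reads summed to at least 10 over the 12 libraries. 44 of 59136 entries met this rule. They comprised 11 genes of fibril-forming chains, 6 genes of the type IV chains of basement membranes (Col4a1 to Col4a6) and 27 genes of other types. 42 of them had enough reads to be tested, and Col9a1 and Col9a2 did not. The libraries came from lungs labelled day 28 of 6 Mut samples (replicates 1, 2, 3, 4, 5 and 7), whose Iars1 alleles were given as Tyr148Cys and Arg444*, and of 6 WT samples (replicates 1, 3, 4, 5, 6 and 7). Iars1 encodes the cytosolic isoleucyl-tRNA synthetase, and the series title ties its mutation to surfactant deposition. The genotype label of the Mut samples also speaks of a knockdown, and the labels of both groups speak of lung primary cells as well as of lung. The labels give neither sex nor strain, and nothing in them ties a library to a mouse of its own. The p-values therefore rest on the spread between libraries, which may be technical in part.

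Collagens are secreted proteins built of 3 chains wound into a triple helix, in which glycine recurs in a fixed repeat and many prolines are hydroxylated. Fibrillar collagens, chiefly types I and III, form the cables that carry load in the walls of vessels, airways and alveoli, and in lung they are made mostly by fibroblasts. Type IV collagen forms the sheet-like network of basement membranes. Col4a1 and Col4a2 chains make the network found in nearly all tissues, whereas the chains of Col4a3, Col4a4 and Col4a5 join in a separate network found in the kidney glomerulus and in alveolar basement membrane, and loss of these genes causes Alport syndrome in people. The remaining types bind to fibrils, form beaded filaments around cells, anchor epithelia, span the cell membrane or carry glycosaminoglycan chains.

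The type IV genes lie in head-to-head pairs, and the levels of paired genes are compared, so the start regions of 2 pairs are shown. They were taken from RefSeq on GRCm38.p6, which held windows of 250 bases before to 50 bases after the start for 35 of the 44 genes. In the Col4a1 window (chr8:11312777-11313076, minus strand) the capitals mark the 22 bases by which the annotated first exons of Col4a1 and Col4a2 overlap. In the Col4a4 window (chr1:82586800-82587099, minus strand) the capitals mark the 71 bases between the annotated starts of Col4a4 and Col4a3.
Col4a1: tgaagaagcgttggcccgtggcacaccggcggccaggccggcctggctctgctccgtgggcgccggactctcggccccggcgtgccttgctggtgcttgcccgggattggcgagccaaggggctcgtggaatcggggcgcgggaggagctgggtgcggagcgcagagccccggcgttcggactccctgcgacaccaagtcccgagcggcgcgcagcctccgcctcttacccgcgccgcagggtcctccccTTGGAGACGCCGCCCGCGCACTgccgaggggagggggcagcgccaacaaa
Col4a4: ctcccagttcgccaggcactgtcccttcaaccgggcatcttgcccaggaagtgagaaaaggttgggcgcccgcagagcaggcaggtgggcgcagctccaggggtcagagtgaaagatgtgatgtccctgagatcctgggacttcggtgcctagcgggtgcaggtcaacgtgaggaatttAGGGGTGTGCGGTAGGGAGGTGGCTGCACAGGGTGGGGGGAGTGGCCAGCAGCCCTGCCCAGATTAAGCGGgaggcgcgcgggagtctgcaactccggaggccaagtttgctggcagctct
The Col4a1 window had a GC content of 74.0% and held 1 CCAAT (searched with its reverse complement ATTGG), 1 GGGCGG (with CCGCCC) and no TATAAA (with TTTATA). The Col4a4 window had a GC content of 63.3% and held none of these letters. Of 32851 RefSeq windows of the same length, 37.4% held CCAAT, 35.7% GGGCGG and 13.6% TATAAA on either strand. Of 38 windows of collagen genes, 13 held CCAAT (34.2%), 23 GGGCGG (60.5%) and 5 TATAAA (13.2%). The annotated starts of the remaining pair, Col4a5 and Col4a6 on chromosome X, lie 1308 bases apart.

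Each library held between 17118716 and 24014890 counted reads, and Mut replicate 7 had the most. Mut replicate 7 also stood apart from the other Mut libraries in many collagen genes, and results that rest on it are given with and without it. Levels are CPM, that is reads relative to the library total scaled by the TMM method. Where genes are compared with each other, they are the deposited FPKM values, which divide by gene length as well. Means have their SD over 6 libraries (n = 6 each), and a positive log2 fold change means a higher level in Mut. The TMM factors were 0.968 to 0.990 in Mut and 1.00 to 1.04 in WT, without overlap between the groups. The Iars1 transcript, annotated as Iars, averaged 55.0 ± 10.7 CPM in Mut and 44.9 ± 8.57 CPM in WT (log2 fold change 0.29, adjusted p = 0.189), so its level did not show a knockdown; it sums both alleles and checks neither amino acid change. Lung epithelial markers were abundant in every library, with summed alveolar type 2 markers (Sftpc, Sftpb, Abca3, Lamp3 and Slc34a2) at 13951 to 27797 CPM in Mut and 15693 to 23431 CPM in WT. In these bulk samples, fewer cells of a type and less RNA per cell cannot be told apart.

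The most abundant collagen transcripts of the lung per unit length were Col4a1, Col4a2, Col3a1 and Col6a1, and this order was the same in both groups. Col4a1 averaged 237 ± 52.5 FPKM in Mut and 224 ± 18.5 FPKM in WT. Col4a2 followed with 197 ± 35.8 FPKM in Mut and 186 ± 9.46 FPKM in WT. Col3a1, the chain of type III fibrils, averaged 175 ± 41.5 FPKM in Mut and 185 ± 35.7 FPKM in WT. In Mut each of these 3 lay within 1 SD of its neighbour in the order, and in WT Col4a2 and Col3a1 did. Col6a1, a chain of beaded filaments, averaged 137 ± 23.6 FPKM in Mut and 142 ± 19.6 FPKM in WT. Col1a1 averaged 85.3 ± 24.7 FPKM in Mut and 88.4 ± 11.8 FPKM in WT, and Col1a2 averaged 72.3 ± 14.5 FPKM in Mut and 75.5 ± 12.6 FPKM in WT, levels that were within their spread. At the other end, Col2a1, the main cartilage collagen, averaged 0.0537 ± 0.0363 FPKM in Mut and 0.0554 ± 0.0147 FPKM in WT.

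Summed over all 44 genes, collagen transcripts stood at the same level in the groups within their spread, at 1233.4 ± 170 FPKM in Mut and 1208.2 ± 126 FPKM in WT. The type IV genes made up 46.2 ± 4.77% of this sum in Mut and 42.8 ± 2.83% in WT. The fibrillar genes made up 30.3 ± 4.48% in Mut and 32.2 ± 2.19% in WT, and the other types 23.5 ± 2.59% in Mut and 24.9 ± 1.01% in WT. For each class the range over Mut libraries overlapped the range over WT libraries. In type IV genes the sum ran from 500 to 728 FPKM in Mut and from 454 to 554 FPKM in WT, with Mut replicate 4 the highest library of all.

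Of the 42 collagen genes tested, 1 passed as higher in Mut (2.38%), Col4a3, against 4.57% of the 19004 genes tested, and 0 passed as lower, against 5.31% (edgeR quasi-likelihood test, adjusted p under 0.05; 9.89% in either direction). At an unadjusted p under 0.05, 3 collagen genes were higher (Col4a3, Col28a1 and Col6a4) and 1 was lower (Col20a1), against 14.4% and 13.2% of all genes. DESeq2 and limma-voom likewise each called 1 collagen gene higher, Col4a3 in both cases, against 6.9% and 4.05% of all genes. Neither called a collagen gene lower, against 7.91% and 5.25% of all genes. The share of collagen genes past the threshold lay below that of all genes in each direction, but without Mut replicate 7 the share called higher was 7.14%, against 5.57% of all genes. Log2 fold changes were under 0.2 in size for 25 of the 42 genes, and for 26 of the 42 the 95% confidence interval lay within a 1.5-fold change either way. No tested collagen gene had all 6 Mut libraries above all 6 WT libraries or all below, as 2.18% and 2.39% of the genes tested did.

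**Figure D1:**
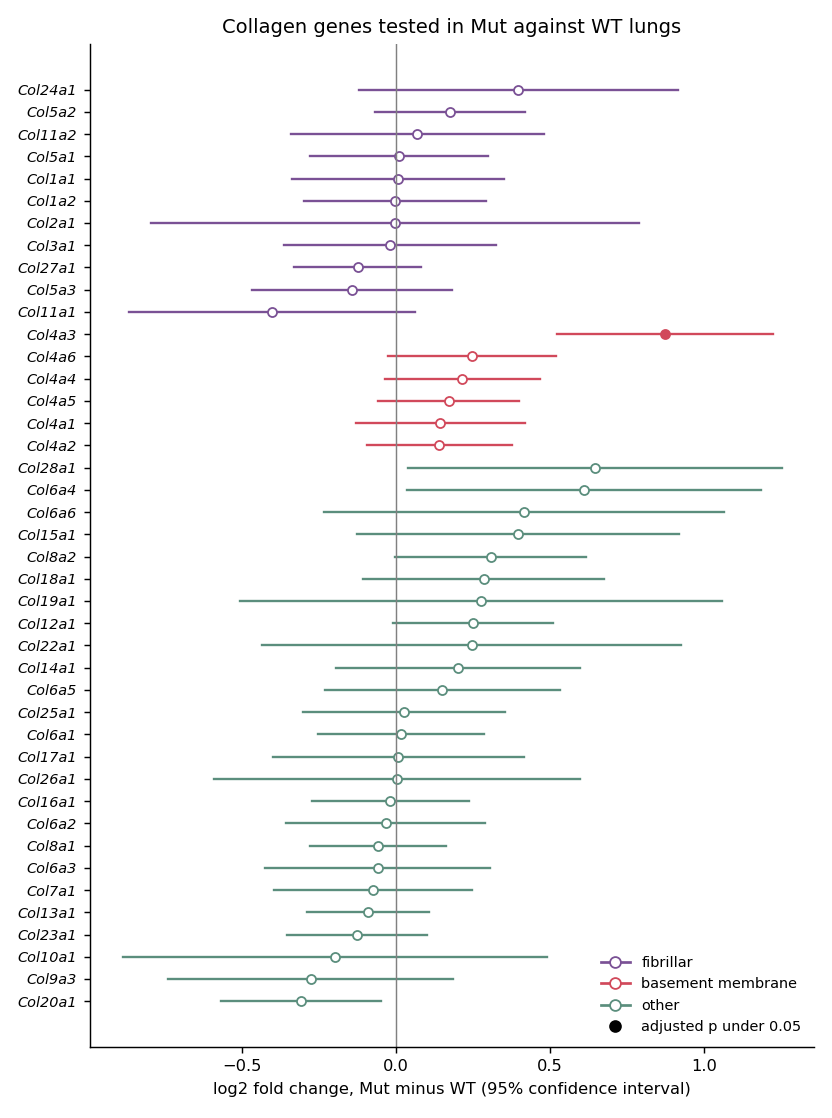
Log2 fold changes, Mut minus WT (horizontal axis), of the 42 collagen genes tested, one row per gene, grouped by class; points are edgeR estimates, bars 95% confidence intervals, and the filled point marks an adjusted p under 0.05. Col4a3 is the filled point at 0.87, and the other 5 type IV genes lie between 0.14 and 0.25.

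A difference between the classes was not tested. The 6 type IV genes had a median log2 fold change of 0.19 and all 6 were above 0, with 1 called. The 11 fibrillar genes had a median of −0.00, ran from −0.40 to 0.40 with 5 above 0, and none was called by edgeR, DESeq2 or limma-voom or had an unadjusted p under 0.05. The 25 tested genes of other types had a median of 0.02, ran from −0.31 to 0.64 with 15 above 0, and none was called by any of the 3 tools. The median over all genes tested was 0.01. With libraries scaled by their totals alone, the 3 medians were 0.13 for type IV, −0.06 for fibrillar and −0.04 for other genes, so the sign of the median of the other types depended on the scaling. With trends over gene length and GC content removed they were 0.11, −0.11 and −0.05. All 6 type IV genes stayed above 0 under each of the scalings and with each library left out, but for Col4a1 the log2 fold change was 0.01 without Mut replicate 4.

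Col4a3 encodes a chain of the alveolar and glomerular basement membrane network whose non-collagenous end is the target of the autoantibodies of Goodpasture disease in people. The gene (chr1:82586921-82722059 on mm10, plus strand) read 440, 457, 314, 490, 589 and 694 CPM in Mut replicates 1, 2, 3, 4, 5 and 7, against 276, 274, 191, 268, 288 and 332 CPM in WT replicates 1, 3, 4, 5, 6 and 7. 5 of the 6 Mut libraries lay above every WT library, and Mut replicate 3 lay just under WT replicate 7. The means were 497 ± 131 CPM in Mut and 272 ± 45.5 CPM in WT, a 1.83-fold higher level (log2 fold change 0.87, SE 0.16, 95% confidence interval 0.52 to 1.22, edgeR adjusted p = 0.00569). In length-scaled units Col4a3 averaged 48.7 ± 12.8 FPKM in Mut and 27.8 ± 4.78 FPKM in WT. The log2 fold change was 0.75 without Mut replicate 7, the highest library (adjusted p = 0.00802), and 0.98 without Mut replicate 3, the lowest Mut library. An opposite-strand transcript, C430014B12Rik, shares 563 exon bases with Col4a3, 5.65% of its exons, and the protocol names no step that keeps the strand. That transcript had only 107 reads in Mut and 88 in WT over all libraries.

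Col4a4, the head-to-head partner of Col4a3 and a chain of the same network (chr1:82448423-82586849, minus strand), read 353, 384, 311, 399, 367 and 565 CPM in Mut replicates 1, 2, 3, 4, 5 and 7. In WT replicates 1, 3, 4, 5, 6 and 7 it read 329, 313, 351, 365, 342 and 351 CPM. The groups overlapped, and Mut replicate 7 stood apart above all other libraries. The means were 397 ± 87.9 CPM in Mut and 342 ± 18.5 CPM in WT, and the difference did not pass (log2 fold change 0.22, 95% confidence interval −0.04 to 0.47, adjusted p = 0.249). Without Mut replicate 7 it was 0.09 (adjusted p = 0.452). Col4a5, the third chain of that network, averaged 300 ± 52.1 CPM in Mut and 267 ± 23.6 CPM in WT (log2 fold change 0.17, adjusted p = 0.312), with Mut replicate 7 again the highest library at 391 CPM. Without that library it was 0.08 (adjusted p = 0.546).

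The chains of the widespread network, Col4a1 and Col4a2, did not pass either. Col4a1 had a lowest, median and highest level of 1324, 1757 and 2559 CPM in Mut and of 1419, 1678 and 1778 CPM in WT (log2 fold change 0.14, adjusted p = 0.491). Col4a2 had 1040, 1312 and 1767 CPM in Mut and 1136, 1206 and 1280 CPM in WT (log2 fold change 0.14, adjusted p = 0.425). For both genes the highest library was Mut replicate 4 and the lowest was Mut replicate 7, so the Mut libraries reached beyond WT on both sides. Without Mut replicate 7 the log2 fold changes were 0.22 for Col4a1 and 0.20 for Col4a2 (adjusted p = 0.192 and 0.161), above those of Col4a4 and Col4a5 in the same fit. Without Mut replicate 4 they were 0.01 and 0.03. Col4a6, the least abundant type IV chain here, averaged 34.8 ± 7.23 CPM in Mut and 29.3 ± 3.73 CPM in WT (log2 fold change 0.25, adjusted p = 0.221).

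**Figure D2:**
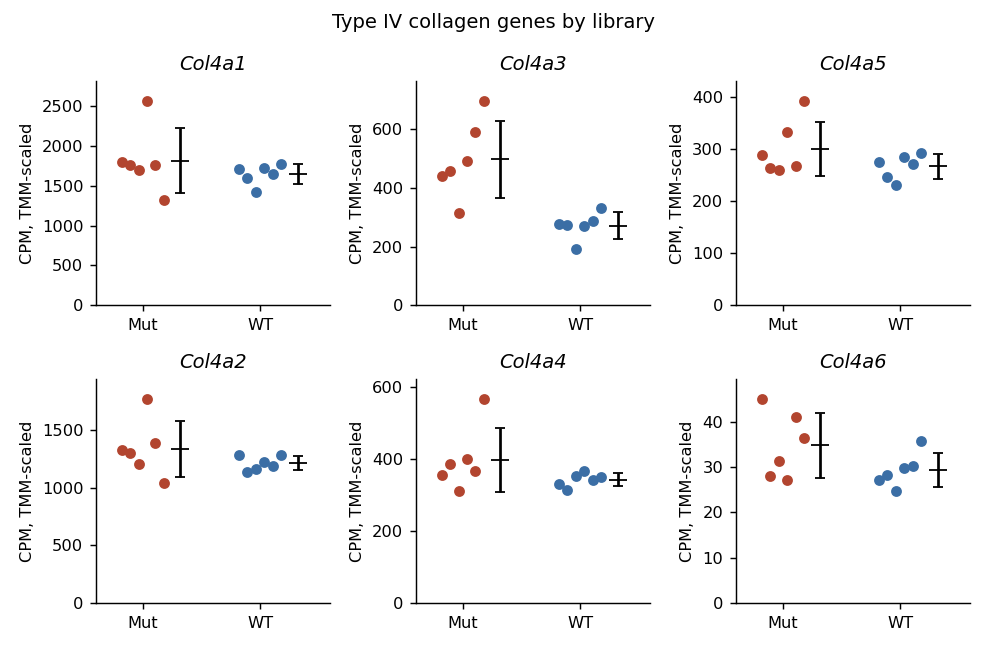
CPM (vertical axis, from 0) of the 6 type IV collagen genes in each Mut and WT library, one panel per gene; points are libraries in replicate order and bars show mean ± SD, n = 6 per group. Col4a3 libraries reach 314 to 694 CPM in Mut against 191 to 332 CPM in WT, whereas the other 5 genes overlap more widely.

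Because trimers need their chains in set proportions, the ratio of chain transcripts was followed within each library. The ratio of Col4a3 to Col4a4, both in FPKM, was 1.33, 1.27, 1.07, 1.31, 1.71 and 1.31 in Mut replicates 1, 2, 3, 4, 5 and 7. In WT replicates 1, 3, 4, 5, 6 and 7 it was 0.893, 0.933, 0.581, 0.783, 0.896 and 1.01. All 6 Mut libraries lay above all 6 WT libraries, including Mut replicate 7, in which both genes were high. On the log2 scale the ratio averaged 0.40 ± 0.22 in Mut and −0.26 ± 0.28 in WT (SD, n = 6 each). It was not tested, since no fit over all gene pairs gives its background. The ratio draws on the same Col4a3 values as the call of that gene, so it adds no separate support.

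The other ratios of chains were alike in level. The log2 ratio of Col4a1 to Col4a2 averaged 0.26 ± 0.08 in Mut and 0.26 ± 0.08 in WT (SD, n = 6 each), although both genes spread widely over the Mut libraries. That of Col1a1 to Col1a2, the chains of type I collagen, averaged 0.21 ± 0.15 in Mut and 0.23 ± 0.10 in WT. That of Col1a1 to Col3a1, chains of different collagen types rather than of one trimer, averaged −1.05 ± 0.15 in Mut and −1.05 ± 0.17 in WT. That of Col6a1 to Col6a2 averaged 1.42 ± 0.13 in Mut and 1.35 ± 0.05 in WT, and that of Col4a5 to Col4a6, added after its values were seen, 3.37 ± 0.38 in Mut and 3.44 ± 0.11 in WT. In each of these 5 ratios the groups overlapped.

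**Figure D3:**
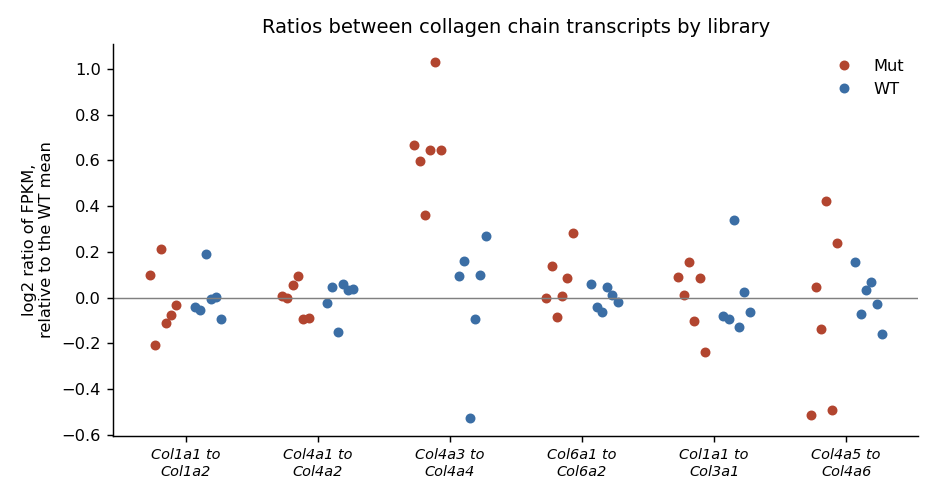
Log2 ratio of the FPKM of chain genes (vertical axis), relative to the WT mean of the same ratio, for 6 pairs of genes; each point is a library, Mut left of WT within a pair. The 6 Mut libraries lie above the 6 WT libraries for Col4a3 to Col4a4, and the groups overlap for the other 5 pairs.

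The chief fibrillar genes did not differ between groups beyond the spread of the libraries. Col1a1 had a lowest, median and highest level of 395, 544 and 813 CPM in Mut and of 455, 560 and 674 CPM in WT. Its log2 fold change was 0.01 with a 95% confidence interval from −0.34 to 0.35. Col1a2 had 725, 935 and 1131 CPM in Mut and 755, 912 and 1158 CPM in WT (log2 fold change −0.00, 95% confidence interval −0.30 to 0.29). Col3a1 had 1215, 1814 and 2266 CPM in Mut and 1337, 1770 and 2189 CPM in WT (log2 fold change −0.02, 95% confidence interval −0.36 to 0.33). For Col1a2 and Col3a1 the Mut and WT ranges nearly coincided. For Col1a1 the Mut range was wider, with 2 Mut libraries above all WT libraries and 2 below all of them.

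Of the minor fibrillar chains none was called. Col5a1 and Col5a2, whose type V molecules help start type I fibrils, had log2 fold changes of 0.01 and 0.18, and the third type V chain, Col5a3, one of −0.14. Col11a1, a chain of cartilage fibrils, had the lowest fibrillar value at −0.40 (adjusted p = 0.244) and averaged only 1.01 ± 0.269 CPM in Mut and 1.34 ± 0.294 CPM in WT. Col24a1 had the highest at 0.40 (adjusted p = 0.302), with 1.29 ± 0.412 CPM in Mut and 0.969 ± 0.204 CPM in WT. Col27a1, at −0.12, averaged 43.8 ± 5.55 CPM in Mut and 47.7 ± 4.85 CPM in WT. Col11a2 and Col2a1 had values of 0.07 and −0.00. Both lie under 5 CPM in either group, where the intervals are wide.

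Among the beaded-filament genes of type VI collagen, the abundant chains did not differ. Col6a1 had a lowest, median and highest level of 416, 650 and 708 CPM in Mut and of 526, 593 and 714 CPM in WT, Col6a2 had 255, 467 and 525 CPM in Mut and 376, 448 and 538 CPM in WT, and Col6a3 had 199, 384 and 413 CPM in Mut and 279, 367 and 456 CPM in WT. Their log2 fold changes were 0.02, −0.03 and −0.06, and in all 3 genes a single Mut library, replicate 7, lay below every other library of both groups. The alternative chain Col6a4 averaged 4.16 ± 1.58 CPM in Mut and 2.71 ± 0.883 CPM in WT (log2 fold change 0.61, adjusted p = 0.156), with 3 of 6 Mut libraries above all WT libraries. Col6a5 and Col6a6 had values of 0.15 and 0.42, both with intervals across 0.

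The multiplexin genes Col15a1 and Col18a1 encode basement membrane collagens that carry glycosaminoglycan chains, and the end of the Col18a1 chain yields endostatin. Col18a1 read 26.996 CPM in Mut replicate 7 and 59.4 to 77.6 CPM in the other 5 Mut libraries, against 40.8 to 57.4 CPM in WT. These 5 Mut libraries lay above all WT libraries, and the sixth lay below them all. Over all 12 libraries the log2 fold change was 0.29 (adjusted p = 0.325), and without Mut replicate 7 it was 0.44 (SE 0.09, adjusted p = 0.0113). Col15a1 averaged 22.3 ± 9.64 CPM in Mut and 16.9 ± 3.17 CPM in WT (log2 fold change 0.40, adjusted p = 0.308).

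Fibril-associated collagens lie on the surface of fibrils. Of their 7 tested genes 4 were above 0 and none was called. Col12a1 averaged 55.6 ± 8.01 CPM in Mut and 46.8 ± 7.47 CPM in WT (log2 fold change 0.25, adjusted p = 0.198), and 5 of 6 Mut libraries lay above all WT libraries. Col14a1 had a log2 fold change of 0.20 and Col16a1 one of −0.02. Col20a1 was the collagen gene lowest in Mut by unadjusted p, with 4.54 ± 0.470 CPM in Mut and 5.62 ± 0.668 CPM in WT (log2 fold change −0.31, adjusted p = 0.117) and 5 of 6 Mut libraries below all WT libraries. Its exons share 79 bases with a same-strand transcript, BX649560.1, that had more reads (2409 against 1174 for Col20a1 over all libraries). Col19a1, Col22a1 and Col9a3 had values of 0.27, 0.25 and −0.28 at levels under 2 CPM in both groups.

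Of the network-forming and anchoring genes, Col8a1 and Col8a2 encode the short chains of type VIII collagen and Col7a1 the anchoring fibril under epithelia. Col8a2 averaged 11.4 ± 2.23 CPM in Mut and 9.20 ± 1.49 CPM in WT (log2 fold change 0.31, adjusted p = 0.185), and Col8a1 15.1 ± 2.10 CPM in Mut and 15.7 ± 1.32 CPM in WT (−0.06). Col7a1 read 9.8713 CPM in Mut replicate 7 and 18.2 to 22.3 CPM in the other Mut libraries, against 19.4 to 20.98 CPM in WT (log2 fold change −0.08). Col10a1, the collagen of cartilage about to ossify, stood at 1.65 ± 0.944 CPM in Mut and 1.87 ± 0.411 CPM in WT (−0.20). The membrane-spanning collagens were close to 0 as well, with −0.09 for Col13a1, 0.01 for Col17a1, −0.13 for Col23a1 and 0.03 for Col25a1. Of the remaining genes, Col28a1 averaged 1.504 ± 0.603 CPM in Mut and 0.967 ± 0.284 CPM in WT (log2 fold change 0.64, adjusted p = 0.156), and Col26a1 had a value of 0.00.

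The 2 untested genes belong to type IX collagen, which coats cartilage fibrils. Col9a2 had 9, 7, 5, 8, 5 and 13 reads in Mut replicates 1, 2, 3, 4, 5 and 7, against 4, 2, 1, 2, 3 and 3 reads in WT replicates 1, 3, 4, 5, 6 and 7. All 6 Mut libraries lay above all 6 WT libraries, as for 1.21% of the entries with at least 10 counts. With no filter on low counts its log2 fold change was 1.53 (SE 0.52, adjusted p = 0.0857), which did not pass. Col9a1 had 53 reads in Mut and 45 in WT in all. Summed cartilage markers were 84.5 to 118 CPM in Mut and 87.2 to 108 CPM in WT. Most of this sum was Matn4 (66.6 ± 8.90 CPM in Mut and 71.2 ± 5.29 CPM in WT) and Chad (24.6 ± 10.3 and 15.8 ± 5.54 CPM). Hapln1 was the highest of the others, at a mean of 2.96 CPM in Mut and 3.26 CPM in WT. Acan, Matn1, Cnmd and Snorc were too low to test.

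Mut replicate 7 differed from the rest of its group across the collagen classes. It was the lowest Mut library for 23 of the 42 tested collagen genes (54.8%), against 25.4% of all genes tested. Relative to the other 5 Mut libraries it was lower by log2 values of −0.66 in Col6a1, −0.91 in Col6a2, −0.91 in Col6a3, −1.07 in Col7a1 and −1.32 in Col18a1. It was higher by 0.63 in Col4a3, 0.64 in Col4a4 and 0.48 in Col4a5. With length and GC trends removed, the values were −0.75 for Col6a3, −1.04 for Col18a1 and 0.73 for Col4a4, so the departures kept their direction. The same library had summed smooth muscle and pericyte markers of 436 CPM, where WT libraries had 838 to 950 CPM, and summed endothelial markers of 2499 CPM, where WT had 3559 to 3924 CPM. Its alveolar type 1 markers (7211 CPM) and type 2 markers (27797 CPM) were the highest of all 12 libraries. So were its summed fibroblast markers (5181 CPM) and mesothelial markers (463 CPM). The part of these markers in the collagen values was not tested.

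The standard deviation of log2 CPM was larger in Mut for 34 of the 42 collagen genes (81.0%), against 58.9% of all genes tested. Without Mut replicate 7 it was larger in Mut for 26 of 42, against 49.5%. The 3 collagen genes called without that library, all higher in Mut, were Col4a3, Col18a1 and Col6a4 (log2 fold change 0.77, adjusted p = 0.0448). The class medians were then 0.21 for type IV, 0.07 for fibrillar and 0.11 for other genes.

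**Figure D4:**
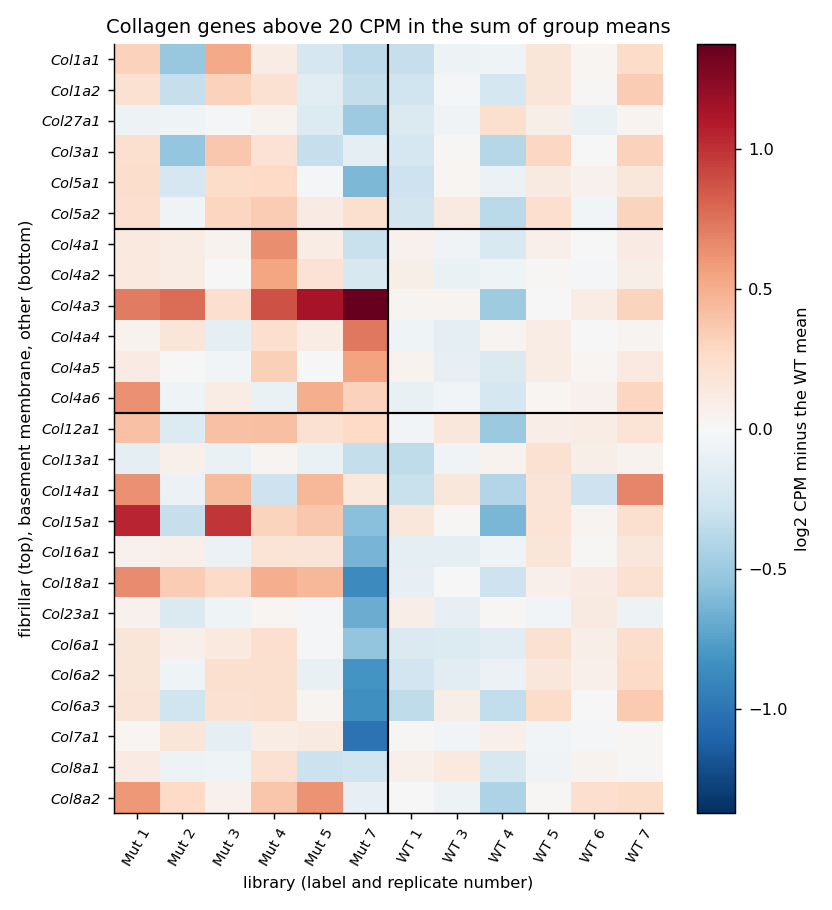
Log2 CPM minus the WT mean (colour) for the 25 collagen genes whose group mean CPM values sum to over 20, in each library (columns, 6 Mut left and 6 WT right), with fibrillar genes at the top, type IV in the middle and other types at the bottom. Col4a3 is above its WT mean in all 6 Mut libraries, and Mut replicate 7 combines high Col4a3, Col4a4 and Col4a5 with low Col6a1, Col6a2, Col6a3, Col7a1 and Col18a1.

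The classes also differ in what their transcripts encode. Counted as codons of the GENCODE M21 coding sequence, the longest unbroken run of triplets that each open with glycine was 216 to 344 triplets in the 11 fibrillar genes (median 338). In the 6 type IV genes, whose helix is known to be interrupted at many places, it was 39 to 66 triplets (median 43.5), and in the 27 other genes it was 23 to 113 (median 45). Isoleucine, the amino acid that the enzyme encoded by Iars1 loads, took 1.38 to 3.55% of the codons in fibrillar genes (median 2.65%). It took 2.32 to 3.84% in type IV genes (median 2.93%) and 1.57 to 5.23% in the other genes (median 3.49%). These are features of the annotation and say nothing of translation in these lungs.

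The edgeR counts of called genes in the lists that follow stand against 4.57% of all genes tested called higher and 5.31% called lower. For DESeq2 these shares were 6.9% and 7.91%, and for limma-voom 4.05% and 5.25%. At an unadjusted p under 0.05 (edgeR) they were 14.4% and 13.2%, and without Mut replicate 7 5.57% and 5.73%. The lists were not tested as such. Of 20 genes for folding and modification, 3 were called higher and none lower, with a median log2 fold change of 0.08. All 3 hydroxylate proline, whereas other prolyl hydroxylase genes of the same list were not called. P4ha2, a catalytic subunit of the main prolyl hydroxylase of collagen, averaged 60.1 ± 10.2 CPM in Mut and 39.4 ± 5.29 CPM in WT (log2 fold change 0.61, SE 0.12, adjusted p = 0.00641). All 6 Mut libraries lay above all WT libraries for P4ha2, as for 2.18% of all genes tested. P4ha1, the other such subunit, averaged 177 ± 47.0 CPM in Mut and 118 ± 21.5 CPM in WT (log2 fold change 0.59, SE 0.17, adjusted p = 0.0367). P3h2, which hydroxylates prolines at another position and acts on type IV collagen, averaged 11.6 ± 2.55 CPM in Mut and 7.67 ± 1.204 CPM in WT (log2 fold change 0.60, SE 0.15, adjusted p = 0.0252). The call of P4ha1 was lost with any 1 of Mut replicates 2, 3, 4 and 7 or WT replicates 1, 3, 4, 5 and 6 left out (adjusted p up to 0.0817), and that of P3h2 was lost without Mut replicate 5 or any 1 of WT replicates 4, 5 and 6 (up to 0.0541).

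Of 13 tested genes for procollagen cleavage and crosslinking, 1 was called higher (median 0.06). Lox, the enzyme that starts crosslinks between collagen and elastin chains, averaged 235 ± 48.2 CPM in Mut and 141 ± 27.8 CPM in WT (log2 fold change 0.74, SE 0.14, adjusted p = 0.00719), with 4 of 6 Mut libraries above all WT libraries. Its relative Loxl1 averaged 87.9 CPM in Mut and 123 CPM in WT (log2 fold change −0.49, edgeR adjusted p = 0.0762), which did not pass by edgeR or limma-voom but was called lower by DESeq2. Of 12 genes for collagen breakdown and its inhibitors, 1 was called higher (median −0.14). This was Timp3, a matrix-bound inhibitor of metalloproteinases, with 740 ± 181 CPM in Mut and 422 ± 109 CPM in WT (log2 fold change 0.81, SE 0.19, adjusted p = 0.0154). The membrane-bound collagenase Mmp14 averaged 66.6 CPM in Mut and 81.0 CPM in WT (−0.28, adjusted p = 0.0513). DESeq2 called 3 of these genes higher and 2 lower, and limma-voom 2 higher. None of 9 collagen receptor genes was called by edgeR or limma-voom (median −0.03, with Ddr2 at 0.28 and Itgb1 at 0.14), 2 were higher at an unadjusted p under 0.05, and DESeq2 called Itga10 (log2 fold change 0.51 by edgeR).

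None of 15 genes for basement membrane partners (laminins, nidogens, perlecan and agrin) was called by edgeR, DESeq2 or limma-voom, and at an unadjusted p under 0.05 there were 4 higher and 1 lower. Their median was 0.21, with Lama5 at 0.26 and Lamb2 at 0.24. The lower gene was Lama1 at −0.63, with a mean of only 1.85 CPM in Mut and 2.86 CPM in WT. Without Mut replicate 7, 2 genes of this list were called higher. Of 8 genes for fibril-binding proteoglycans, 3 were called higher and 1 lower (median 0.44). Dcn, which encodes decorin, averaged 171 ± 48.6 CPM in Mut and 112 ± 4.62 CPM in WT (log2 fold change 0.61, adjusted p = 0.0269). Aspn averaged 66.0 ± 9.56 CPM in Mut and 42.0 ± 11.04 CPM in WT (0.65, adjusted p = 0.0175). Ogn averaged 678 ± 85.4 CPM in Mut and 461 ± 99.1 CPM in WT (0.55, adjusted p = 0.0233). Fmod, which encodes the fibril-binding fibromodulin, fell to 13.6 ± 1.80 CPM in Mut, against 19.9 ± 3.25 CPM in WT (−0.55, adjusted p = 0.0128). All 6 Mut libraries lay below all WT libraries for Fmod, as for 2.39% of all genes tested. The call of Dcn was lost without any 1 of Mut replicates 1 and 5 and WT replicates 3, 4, 5 and 6 (adjusted p up to 0.0618), and that of Ogn without Mut replicate 2 (0.0514).

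Genes that supply proline and glycine, the residues that collagen uses most, had the highest median of the 8 lists around collagen, with 4 of 11 called higher and none lower (median 0.61). Phgdh, which opens serine synthesis and thereby feeds glycine, averaged 39.7 ± 5.87 CPM in Mut and 10.5 ± 1.39 CPM in WT (log2 fold change 1.92, SE 0.12, adjusted p = 1.17e-07). Aldh18a1, which opens proline synthesis, averaged 36.4 ± 8.598 CPM in Mut and 15.2 ± 2.69 CPM in WT (1.26, adjusted p = 3.86e-04). Psat1, the next enzyme of serine synthesis, and Shmt2, which turns serine into glycine in mitochondria, had log2 fold changes of 0.97 and 0.73. In each of these 4 called genes all 6 Mut libraries lay above all 6 WT libraries, as for 2.18% of all genes tested. Of 13 tested genes for TGF-beta ligands, receptors and early targets, which control fibrillar collagen genes in fibrosis, 1 was called higher (median 0.14). This was Skil at 0.27 (adjusted p = 0.0454), which lost its call with any 1 library left out other than replicate 3 of either group (adjusted p as high as 0.0981).

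**Figure D5:**
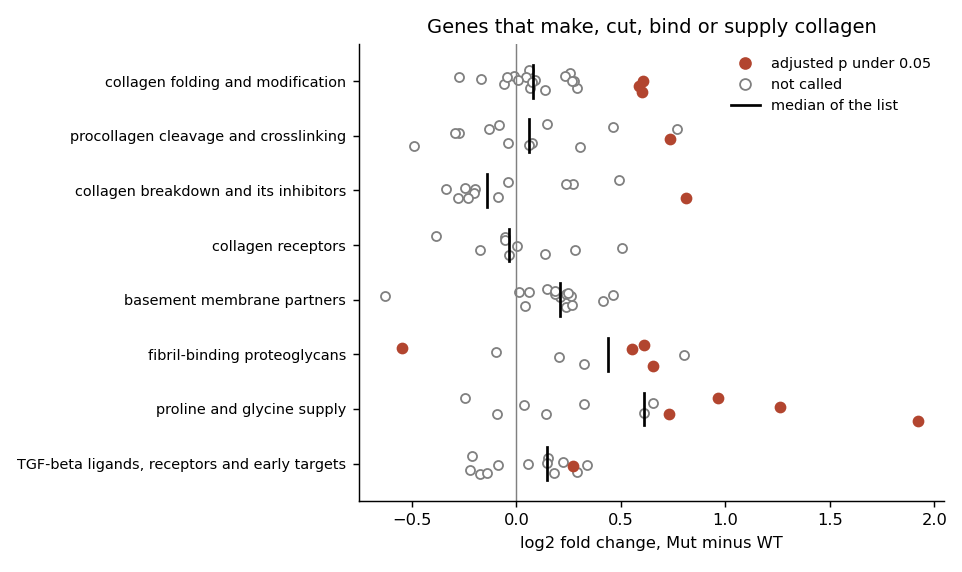
Log2 fold change, Mut minus WT (horizontal axis), of the tested genes of 8 lists around collagen (rows); filled points have an adjusted p under 0.05, open points do not, and vertical bars mark the median of a list. The filled points reach 1.92 in proline and glycine supply, and the receptor and basement membrane partner lists hold none.

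Of 9 fibroblast markers 1 was called, Pdgfra (409.7 ± 66.2 CPM in Mut and 299.7 ± 42.0 CPM in WT, log2 fold change 0.45, adjusted p = 0.0258), with a median over the list of −0.03 and summed levels of 4366 to 5181 CPM in Mut and 4546 to 5078 CPM in WT. Its call was lost without any 1 of Mut replicates 2 and 4 and WT replicates 3, 4, 5 and 6 (adjusted p up to 0.0634). Of 7 alveolar type 1 markers 1 was called, Clic5 (1436 ± 199 CPM in Mut and 1022 ± 124 CPM in WT, log2 fold change 0.49, adjusted p = 0.0157). The median over that list was 0.07, with sums of 5331 to 7211 CPM in Mut and 5074 to 6602 CPM in WT. Of 5 alveolar type 2 markers 1 was called, Slc34a2 (2340 ± 660 CPM in Mut and 1606 ± 137 CPM in WT, log2 fold change 0.54, adjusted p = 0.0332), also by DESeq2 and limma-voom, with Abca3 at 0.38 and a list median of 0.24. The call of Slc34a2 was lost without any 1 of Mut replicates 4 and 5 and WT replicates 1, 3, 4, 5 and 6 (adjusted p up to 0.0746). None of the 9 smooth muscle and pericyte or the 9 endothelial markers was called by edgeR, DESeq2 or limma-voom (1 and 0 higher at an unadjusted p under 0.05), but without Mut replicate 7 there were 3 of the smooth muscle and pericyte markers called higher.

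Markers of other tissues were also followed. Summed adipocyte markers were 29.9 to 199 CPM in Mut and 12.6 to 57.6 CPM in WT, with a list median of 1.65. Of 5 tested, 2 were called higher by edgeR and DESeq2 and none by limma-voom, namely Plin1 (log2 fold change 1.87) and Fabp4 (1.57). Plin1 kept its call in 5 and Fabp4 in 2 of the 12 fits with a library left out (adjusted p up to 0.0947 and 0.101). Plin1 lost it without any 1 of Mut replicates 1, 3 and 5 and WT replicates 1, 4, 5 and 7, and Fabp4 kept it only without Mut replicate 2 or 4. Summed heart muscle markers were 268 to 1705 CPM in Mut and 161 to 708 CPM in WT. Their median was 0.81, and of 6 tested none was called by edgeR or limma-voom and 1 by DESeq2, with 2 higher at an unadjusted p under 0.05.

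Summed airway markers were 10143 to 18915 CPM in Mut and 12912 to 21657 CPM in WT. Most of this sum was Scgb1a1, the club cell secretoglobin, named after its values were seen, at 14569 ± 2779 CPM in Mut and 16200 ± 3078 CPM in WT. The list median was 0.73, and 2 of 5 tested were called higher by edgeR, 4 by DESeq2 and 1 by limma-voom. Bpifa1, a secreted airway protein gene, averaged 677 ± 415 CPM in Mut and 73.5 ± 69.9 CPM in WT (log2 fold change 3.21, adjusted p = 0.0230), and lost its call without WT replicate 4 or 5 (up to 0.0580). Muc5b, a gel-forming mucin gene, averaged 219 ± 163 CPM in Mut and 62.8 ± 29.5 CPM in WT (1.80, adjusted p = 0.0416). It was called in only 4 of the 12 fits with a library left out, and lost its call without any 1 of Mut replicates 1, 5 and 7 and WT replicates 1, 3, 4, 5 and 7 (up to 0.0928). The part of any of these cells in the Col4a3 difference was not tested.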

How the data were processed

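Messenger RNA was profiled in 12 mouse lung libraries. RNA was isolated with a column kit, selected on oligo(dT) beads and copied from random hexamer primers, per the labels' protocols. The authors deposited a table of read counts per gene and library, taken as unscaled from its whole-number values, and a table of FPKM values. The build mm10 and limma are named per the submitters' processing notes, and no aligner or counting program is given in the sources used here. Symbols, coordinates and coding sequences came from GENCODE M21, which matched 54409 of 59136 entries; the other 4727 held 0.589 to 0.872% of the counts.

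The tests used edgeR 4.0.16 under R 4.3.3. FilterByExpr (minimum count 10, minimum total 15) kept 19004 genes, TMM scaled the libraries, and a robust quasi-likelihood fit with no further covariate gave Mut against WT, with Benjamini-Hochberg adjustment over all genes tested (threshold 0.05). The biological coefficient of variation was 17.4%. Alternatives used DESeq2 1.42.0, limma 3.58.1 (voom, and log2(FPKM + 1) or log2(FPKM + 0.1), with genes of at least 0.5 FPKM in at least 6 libraries), mgcv 1.9.3 for trends over length and GC content (18279 genes), other scalings, filters and thresholds, a replicate block and each library left out. Figures used Python 3.11.15 with matplotlib 3.10.9.

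The members, classes and lists were chosen with earlier results of these data known. Any collagen gene could be named, and of each list the called genes or up to 4 with the smallest p. A table of protein sequences was not used here, so glycine and isoleucine were counted as codons.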

Additional observations from a re-analysis of the deposited data

Results flagged for a closer look

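5 values stood apart from the other 5 libraries of their group, by a gap to the nearest library of more than 0.625 of the whole range (Dixon's criterion for 6 samples). 84 groups, the 42 tested collagen genes in Mut and in WT, were examined, and about 1 in 20 groups is marked by chance.

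3 of the 5 values came from Mut replicate 7. Col18a1 read 26.996 CPM there, where the other Mut libraries read 59.4 to 77.6 CPM. Col7a1 read 9.8713 CPM there, where they read 18.2 to 22.3 CPM. Col4a4 read 565.16 CPM there, where they read 311 to 399 CPM. This library also had the lowest summed smooth muscle and pericyte markers and the lowest summed endothelial markers of the 12. Its summed fibroblast, mesothelial, alveolar type 1 and alveolar type 2 markers were the highest of the 12. The part of these markers in the values was not tested.

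The other 2 values came from WT. Col15a1 read 10.777 CPM in WT replicate 4, where the other WT libraries read 16.8 to 19.3 CPM. Col6a4 read 4.4159 CPM in WT replicate 1, where the others read 2.06 to 2.87 CPM.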

How the results depend on the processing

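The 3 class medians moved by less than the spread between libraries under every alternative run, and no collagen gene was called lower under any. Col4a3 kept its direction under all 26 alternative fits (log2 fold change 0.75 to 0.98). The other thresholds tried, adjusted p under 0.01 and 0.1, leave fold changes and medians as they are. The replicate number shared by 5 pairs of libraries did not pair them: the correlations of their deviations were 0.102, −0.128, −0.144, 0.112 and −0.127, and none of these Mut libraries was closest to the WT library of its number. With the replicate block, 107 genes were called in place of 1879 and 0 collagen genes (Col4a3 0.89, adjusted p = 0.0602), and of the 21 called genes of the lists 4 were called (Aldh18a1, Phgdh, Plin1 and Psat1). With the block on the 10 libraries that share a number it was 126 genes and 0 collagen genes, against 626 genes on the same 10 libraries unpaired, a fit added after the data were seen. With the block and length and GC trends removed it was 267 genes. At adjusted p under 0.01 and 0.1 the counts were 455 and 3323. Leaving out each library in turn gave 957 to 2368 genes and 1 to 3 collagen genes called higher, the 3 without Mut replicate 7. The split into higher and lower calls was 869 and 1010 with TMM, 809 and 1077 with RLE, 648 and 1242 with upper-quartile factors, and 518 and 1513 from totals alone. The causes of these shifts were not tested. Most collagen genes under 2 CPM had wide intervals at this depth, so a difference in those was not detectable unless large. The interval of Col25a1 was narrower, at −0.30 to 0.35.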

Other observations

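Genes around Col4a3 were looked at after its values were seen. Of 11 tested genes within 1000000 bases of Col4a3 on chromosome 1, Col4a3 included, 3 were called, all higher in Mut. The window was placed around Col4a3 with its call known, so that gene adds nothing to the count. This leaves Rhbdd1 and Slc19a3, where 4.57% of all genes tested were called higher. Rhbdd1, on the far side of Col4a4, averaged 46.5 ± 4.93 CPM in Mut and 34.2 ± 1.51 CPM in WT (n = 6 each, log2 fold change 0.45, adjusted p = 0.0040 by edgeR). Slc19a3, a thiamine transporter gene, averaged 8.93 ± 2.34 CPM in Mut and 4.52 ± 0.724 CPM in WT (log2 fold change 0.98, adjusted p = 0.00408). For both, all 6 Mut libraries lay above all 6 WT libraries, as for 2.18% of all genes tested. Mff, a mitochondrial fission factor gene (log2 fold change 0.26, adjusted p = 0.0526), and Agfg1 (0.19, adjusted p = 0.110) were likewise separated but did not pass. Neighbouring genes are not independent, and the neighbourhood was not tested as such.

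The GC content of genes went with the level of collagen genes in single libraries to a varied degree. Across the 42 tested collagen genes, which are not independent replicates, Spearman's rho between GC content and the deviation of the library was −0.34 in Mut replicate 7 and 0.47 in WT replicate 4, given as a description. Over all 18279 genes with a GC content it was −0.23 and 0.28 in the same libraries. In some other libraries the sign differed between collagen genes and all genes. Examples are Mut replicate 3 (−0.25 and 0.08) and WT replicate 5 (0.17 and −0.13).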
